A study of Bos taurus with 4 samples.

Results

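All-trans retinoic acid (ATRA), an acid form of vitamin A, was given to bovine intramuscular preadipocytes, the fat cell precursors that lie within skeletal muscle, and its effect on their RNA was read after 6 days of adipogenic culture. The comparison took the 3 arrays labelled as treated with 1 µM ATRA against the 3 arrays of the untreated day 6 control. These are 6 of the 12 arrays and 2 of the 4 samples of the series, taken by their labels. By its title, the study set out to learn what vitamin A does to the expression profile of such cells as fat formation proceeds. Both groups grew from confluence in the same medium, which held 50 ng/mL insulin, 10% fetal bovine serum, the glucocorticoid dexamethasone at 0.25 µM, acetic acid at 10 mM and octanoate at 5 mM, and was renewed every 2 days, so the control carries the hormone and fatty acid stimulus too. The control is labelled as untreated, with no vehicle named. The other groups, cells harvested at day 0 before the stimulus and cells given 1 µM of the isomer 9-cis retinoic acid (9cRA) until day 6, enter only where they are named.

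Retinoic acid is made inside cells from retinol by retinol dehydrogenases and aldehyde dehydrogenases, is carried by small cytosolic binding proteins, and is broken down by enzymes of the CYP26 family. It acts on nuclear receptors of the RAR family, which sit on DNA in pairs with retinoid X receptors (RXR) and switch from repressing to activating nearby genes when the ligand binds. In cultured preadipocytes it is known as an inhibitor of fat cell formation when present early, and in embryos as a signal that switches on HOX genes.

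Levels are given as log2 of the processed spot signal minus the 75th percentile of that array, and differences are ATRA minus day 6 control on this log2 scale, with the standard error (SE) and Benjamini-Hochberg adjusted p of limma over 17624 genes. Whether the 3 arrays of a group came from separate cultures is not stated in the labels, and the p-values therefore cover the spread from array to array alone, possibly a technical one. On these 6 arrays between 64.8% and 74.0% of spots were well above background, and control array 1 had the lowest share and also 103 non-uniform spots, where each of the other arrays had 2 or fewer. Control array 1 and ATRA array 3 lay on slides of their own within the comparison, and slide 2 held control arrays 2 and 3 with ATRA arrays 1 and 2. A fit with slide as a fixed block therefore takes its difference from slide 2 alone, the same difference as on slide 2 by itself. As a check of the labelled cell type, 17 of 21 preadipocyte and fibroblast markers were well above background on all control arrays and 18 on all ATRA arrays, and the only one above background on no array was DPP4. Markers of other cell types were detected too, with 11 of 22 skeletal muscle, 6 of 16 endothelial, 9 of 17 macrophage and leukocyte and 7 of 11 Schwann cell and neural markers well above background on all control arrays. Among those above background on no array were the muscle regulators MYF5, MYF6 and PAX7, the endothelial genes CDH5 and PECAM1, the leukocyte genes AIF1, CD163 and ITGAM and the Schwann cell gene SOX10.

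ATRA changed the level of 8134 genes (46.2% of those tested), 4184 of them upwards (23.7%) and 3950 downwards (22.4%). At 2-fold or more 1382 genes changed (7.84%), of which 746 rose (4.23%) and 636 fell (3.61%). For 54% of all genes the 3 arrays of one group lay wholly above those of the other. A lack of overlap in a single gene therefore adds little to its call. The counts by gene list below are to be read against the shares of all genes that rose and fell. The median difference over all genes was 0.05. The upward side held the larger changes: 120 genes rose at least 4-fold and 33 at least 8-fold among genes measured above background on each of the 6 arrays, against 70 and 19 that fell. Each of the 25 largest increases and 25 largest decreases kept its call with slide as a block, though they had been picked for their size on the same arrays. The plot of level against difference shows large changes among dim and bright genes alike.

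**Figure D1:**
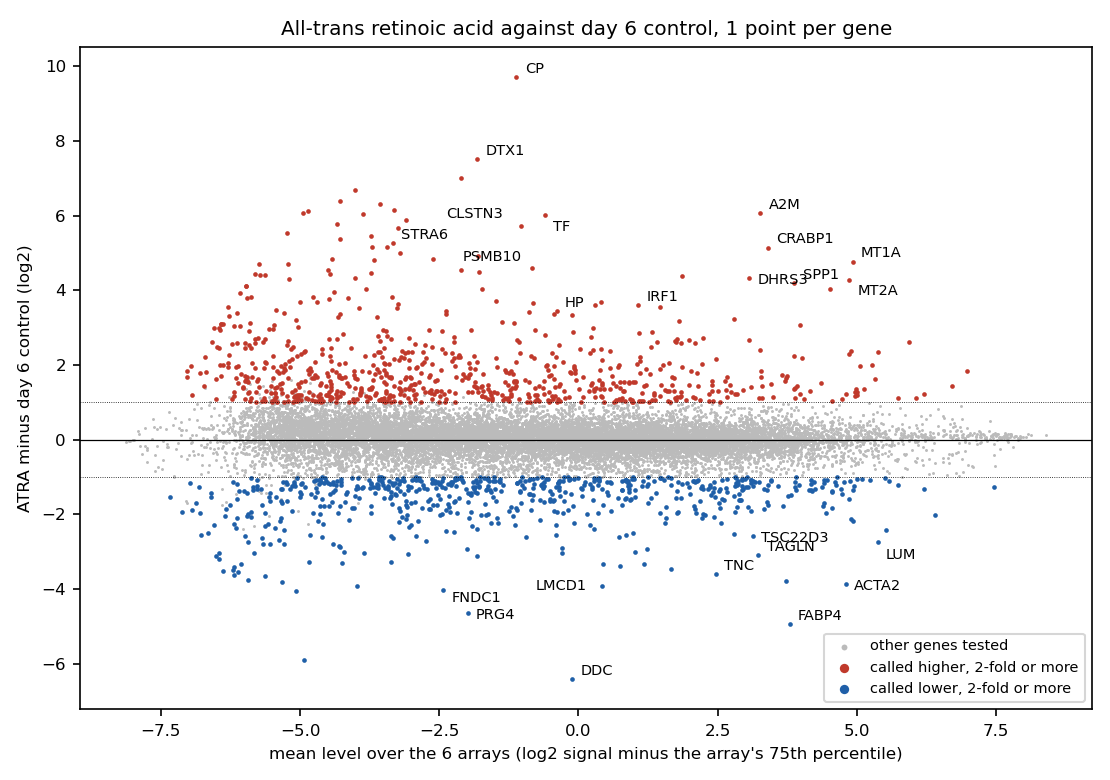
Difference between ATRA and day 6 control (y axis, log2, from limma) against the mean level over the 6 arrays (x axis, log2 signal minus the 75th percentile of the array), 1 point per tested gene. Red points are the 746 genes called higher and blue points the 636 called lower at 2-fold or more, grey points are all other genes, and dotted lines mark a 2-fold change; CP lies highest at 9.71 and DDC lowest at -6.40.

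Among the largest increases were genes for enzymes, receptors and membrane proteins. PLEKHB1, a membrane-associated protein with a pleckstrin homology domain, read -0.26, -0.36 and -0.37 on the control arrays and 4.07, 4.02 and 4.11 on the ATRA arrays, a 21.0-fold rise (SE 0.09, adjusted p = 3.1e-10); at its second probe the rise was 1.84 on the log2 scale. MRAP, an accessory protein that brings the corticotropin receptor to the cell surface, read -4.84, -4.30 and -4.02 on the control arrays and 0.17, 0.09 and 0.24 on the ATRA arrays (difference 4.56, adjusted p = 1.8e-07). In both genes every ATRA array lay above every control array. Both were picked for the size of their rise on these same arrays. The separation of the groups therefore comes with that choice and is no separate finding. GGT1, the enzyme that cleaves glutathione outside the cell, read -4.78, -5.18 and -5.10 on the control arrays and -1.54, -1.44 and -1.47 on the ATRA arrays (difference 3.54), and ADORA2B, a receptor for adenosine, read -0.36, -0.29 and -0.32 on the control arrays and 3.22, 3.21 and 3.29 on the ATRA arrays (difference 3.56). MTSS1, a protein that bends membranes and binds actin, rose by 3.69, PRXL2A, a peroxiredoxin-like protein, by 4.04, FAM20A, the partner of a secreted protein kinase, by 3.34, and SLC44A3, of the choline transporter-like family, by 3.14.

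A further set of genes came up from below or close to the detection limit. CP, which encodes the copper-carrying ferroxidase ceruloplasmin (probe at chr1:119908836-119908895 of the UMD3.1 genome), read -5.92, -6.06 and -5.92 on the control arrays and 3.67, 3.85 and 3.70 on the ATRA arrays; 2 of the 3 control arrays were well above background, and the other probes of the gene differed by 6.11 to 11.10. DTX1, a ubiquitin ligase of the Notch pathway, read -3.81, -6.22 and -6.71 on the control arrays and 1.95, 1.87 and 1.99 on the ATRA arrays with 1 control array above background, and BCL2A1, a BCL2 relative that opposes cell death, rose by 4.83, also with 1 control array above background. In all, 34 named genes that rose and 8 that fell at least 4-fold were above background on only some arrays of one group, and their fitted size rests on dim spots. For genes above background on no control array only a lower bound holds: TGM3, a transglutaminase, was at least 30.2-fold higher, the cell adhesion molecule NRCAM at least 18.0-fold, the endothelial sialomucin EMCN at least 11.6-fold, the transmembrane collagen COL13A1 at least 11.5-fold and the nuclear receptor NR5A2 at least 5.09-fold. In the other direction FIGLA, a germ cell transcription factor, was at least 4.84-fold lower and GPR65, a proton-sensing receptor, at least 4.08-fold. Bounds set the brighter group against the lowest signal called well above background on each dim array.

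Some of the largest differences were not shared by all probes of the gene, and what sets these probes apart was not tested. Stretches of 30 bases of the probes concerned are shown, 5′ to 3′ as deposited, with positions on UMD3.1. The CLSTN3 probes lie on the minus strand and those of the other genes shown on the plus strand. Capitals mark AATAAA, the letters of the polyadenylation signal found near the end of many transcripts; it was searched on the strand of the probe and is held by 9.35% of all 43653 probes of 60 bases, its reverse complement TTTATT by 3.46%.
DES probe at chr2:108075865-108075924: agctcaatgatcgcttcgccaactacatcg
DES probe at chr2:108082481-108083025: ctgaacagaaacAATAAAaagataagcaca
CLSTN3 probe at chr5:103581391-103581450: acacaccctagggttttcaAATAAAacaac
CLSTN3 probe at chr5:103608044-103608539: accgctctttgccttggacaaggatgctcc
FNDC1 probe at chr9:96998010-96998068: aaagaacaaaatattagctaacggtggact
FNDC1 probe at chr9:97041772-97041831: actgtcaatttgtggattcacaccttgatg
STRA6 probe at chr21:34886765-34886824: ttggaagatactggctctgctgtattaccc
STRA6 probe at chr21:34901724-34901782: gttagtgtgctctctgtAATAAActtgtgc
For DES, the muscle intermediate filament protein desmin, the first of these probes fell by 1.31 (SE 0.06, adjusted p = 5.2e-08 over all 31205 probes). The second rose by 2.56 (SE 0.10, adjusted p = 1.3e-08). A probe between them, at 108082024, rose by 2.53 with 2 control arrays above background. The probes differed greatly in brightness. On the control arrays the first read 5.49, 5.30 and 5.35, and the second -3.11, -2.92 and -3.33. CLSTN3, a calsyntenin, differed by 5.71 at the probe with AATAAA and by 0.43 (adjusted p = 0.14) at the other. FNDC1, a protein with fibronectin type III domains, differed by 0.09 (adjusted p = 0.78) at the first probe and by -4.02 at the second, and STRA6 by 0.26 (adjusted p = 0.095) and 5.27. Further tested probes of STRA6, above background on no control array and without AATAAA, differed by 4.27 and 6.20. The direction for desmin and the size for the other genes therefore depended on the probe. Of 4524 named genes with at least 2 tested probes and a call at 1 or more of them, 2020 had all probes called in one direction and 2446 (54.1%) had some called and others not. Probes called in both directions were found in 58, and in 10 of these they were above background on all 6 arrays and differed by 0.5 or more each way, among them DES, FZD7 and HSPB6.

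Genes of retinoic acid breakdown, transport, reception and synthesis did not move as one. Of 9 tested genes for breakdown and storage, 4 rose and 1 fell (55.6% called, against 46.2% of all genes). Their median was 0.35, against 0.05 over all genes. The median was 0.19 without control array 1, 0.14 on slide 2 alone and 0.94 without the filter on dim probes. DHRS3, which returns retinaldehyde to retinol, read 1.08, 0.77 and 0.87 on the control arrays and 5.28, 5.26 and 5.16 on the ATRA arrays, a 20.0-fold rise (adjusted p = 5.8e-10). The hydroxylases CYP26A1 and CYP26B1 were above background on no control array and on all ATRA arrays, and their levels with ATRA were -3.51, -3.35 and -3.93 and -4.38, -5.31 and -4.84. LRAT, which stores retinol as an ester, fell by 0.61. None of the 9 genes for synthesis rose and 5 fell (again 55.6% called, median -0.39). RDH10, the dehydrogenase that makes retinaldehyde, read 0.72, 0.47 and 0.58 on the control arrays and -0.75, -0.91 and -0.91 on the ATRA arrays (difference -1.45, SE 0.07, adjusted p = 1.1e-07), and ALDH1A1, which makes the acid, read 4.13, 3.98 and 4.08 on the control arrays and 2.81, 2.77 and 2.57 on the ATRA arrays (difference -1.35, adjusted p = 1.8e-07). Both genes stood lower on every ATRA array than on any control array, a lack of overlap shared by 54% of all genes. ALDH1A2 differed by -0.61 (adjusted p = 0.077).

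The binding proteins split. The cellular retinoic acid binding protein CRABP1 read 1.10, 0.91 and 0.48 on the control arrays and 5.88, 6.03 and 6.01 on the ATRA arrays (difference 5.14, adjusted p = 1.3e-09), while its relative CRABP2 read -0.94, -1.13 and -1.28 on the control arrays and -2.17, -2.24 and -2.02 on the ATRA arrays (difference -1.03, adjusted p = 2.4e-05). The pair thus moved in opposite directions, and its groups did not overlap, as for 54% of all genes. TTR, the blood carrier transthyretin, rose by 0.44, and STRA6, the membrane receptor for retinol carried in blood, read -5.37, -6.09 and -6.43 on the control arrays and -0.69, -0.62 and -0.79 on the ATRA arrays. CRABP1 and CRABP2 belong with the fatty acid binding proteins to one family of small lipid carriers. Of 9 tested members of that family 3 rose and 5 fell (median -1.03). FABP4, the form of mature fat cells, read 6.45, 6.22 and 6.12 on the control arrays and 1.30, 1.36 and 1.32 on the ATRA arrays, 30.6-fold lower with ATRA. FABP5 read 3.37, 3.28 and 3.04 on the control arrays and 1.34, 1.26 and 1.13 on the ATRA arrays (difference -1.99, adjusted p = 1.1e-07), FABP3, the heart and muscle form, differed by -1.32, and FABP9 was at least 1.96-fold lower. FABP7, the brain form, rose by 0.63. The dot plot of retinoid genes shows these levels array by array.

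**Figure D2:**
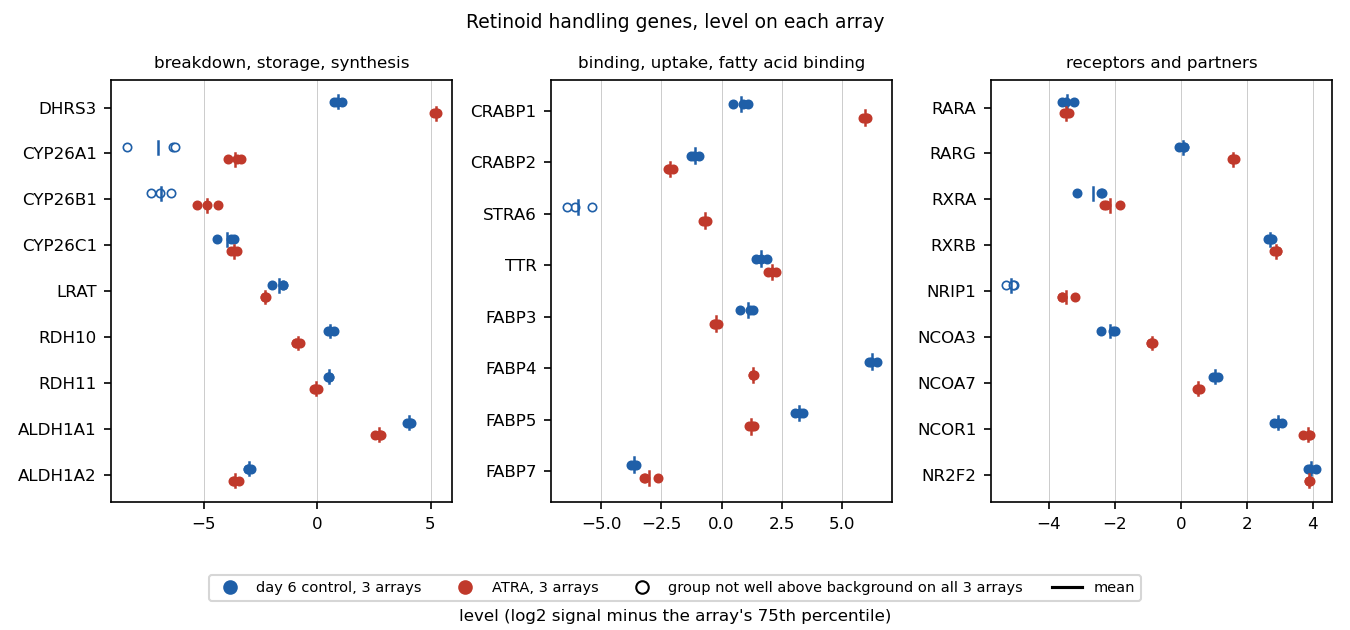
Level of retinoid handling, fatty acid binding and receptor genes on each array (x axis, log2 signal minus the 75th percentile of the array); blue points are the 3 day 6 control arrays and red points the 3 ATRA arrays, bars are group means, and open points mark a group not well above background on all 3 arrays. The ATRA points lie right of the control points for DHRS3, CRABP1 and RARG and left of them for FABP4, FABP5, RDH10 and ALDH1A1.

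Among 14 receptors and their partners 7 rose and 2 fell (median 0.37). RARG, the receptor RAR gamma, read -0.04, 0.10 and 0.10 on the control arrays and 1.59, 1.54 and 1.65 on the ATRA arrays (difference 1.54, adjusted p = 1.6e-08), whereas RARA differed by -0.02 (adjusted p = 0.91). NRIP1, a corepressor that retinoids are known to induce, rose by 1.67, the coactivator NCOA3 by 1.28 and the corepressor NCOR1 by 0.89. NCOA7 fell by 0.52 and NCOA2 by 0.40. Of 35 tested genes known as retinoic acid targets, 20 rose, 7 fell and 8 were not called (77.1% called against 46.2% of all genes, median 0.75). Their median was 0.30 among genes above background on all 6 arrays and 0.33 without the filter on dim probes. Besides the targets already named, TGM2, a transglutaminase, rose by 1.36 and TSHZ1 by 1.35, while NEDD9, a docking protein of focal adhesions, fell by 1.56 and RARRES1 by 0.74.

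HOX genes, which set position along the body axis, were shifted upwards. Of 25 tested members 19 rose and 1 fell (80% called against 46.2% of all genes, median 0.58). With slide as a block 15 rose and 2 fell. Apart from HOXD12, the largest increases belonged to paralogue groups 2, 3 and 5. HOXB2 read -2.48, -2.73 and -2.51 on the control arrays and -0.37, -0.46 and -0.32 on the ATRA arrays (difference 2.19, adjusted p = 1.5e-08) and HOXB3 -2.29, -2.33 and -2.14 on the control arrays and -0.52, -0.40 and -0.27 on the ATRA arrays (difference 1.86, adjusted p = 2.0e-07). HOXA3 rose by 1.34, HOXA2 by 1.17 and HOXA5 by 1.10. HOXD12 rose by 1.69 with 1 control array above background. Members of groups 6 to 10 that rose did so by 0.31 (HOXA7) to 0.93 (HOXB8), and HOXC13 fell by 0.21. Of 10 HOX cofactors of the TALE class 6 rose and 0 fell.

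Several genes for proteins that the liver secretes into plasma rose in these preadipocytes. Of 15 tested acute phase genes 9 rose and 2 fell (73.3% called against 46.2% of all genes, median 1.21). A2M, a protease inhibitor, TF, the iron carrier transferrin, and CP were furthest up. The other 10 of the 25 genes on the array were too dim to be tested. Without the filter on dim probes the median was 0.75. ITIH5 fell by 2.85, with 2 ATRA arrays above background. HP, haptoglobin, which binds free haemoglobin, read -1.82, -2.29 and -2.22 on the control arrays and 1.33, 1.37 and 1.30 on the ATRA arrays (difference 3.44, adjusted p = 1.6e-04). FGG, a fibrinogen chain, read 0.62, 0.48 and 0.44 on the control arrays and 1.78, 1.85 and 1.71 on the ATRA arrays (difference 1.26) and FGB, another chain, rose by 2.70 with 2 control arrays above background. HP and FGG stood higher on every ATRA array, while 54% of all genes had no overlap between the groups. PTX3, a pentraxin made by stromal cells, instead read 6.81, 6.72 and 6.70 on the control arrays and 4.43, 4.16 and 4.36 on the ATRA arrays (difference -2.43, adjusted p = 2.7e-09). Complement mostly rose, with 11 of 18 tested genes up and 3 down (77.8% called against 46.2% of all genes, median 1.04). Without the filter on dim probes the median was 0.22. With slide as a block 10 rose and 0 fell. C3, the central component, read -0.36, -0.45 and -0.25 on the control arrays and 2.47, 2.49 and 2.59 on the ATRA arrays (difference 2.87, adjusted p = 1.6e-08), and C4A read 2.50, 2.24 and 2.58 on the control arrays and 5.54, 5.44 and 5.58 on the ATRA arrays (difference 3.08, adjusted p = 3.5e-08). The proteases C1R and C1S rose by 1.59 and 1.11, and their inhibitor SERPING1 by 1.36. The brakes CD55 and CFI rose by 1.44 and 2.79, the latter with 2 control arrays above background.

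Genes that handle metal ions changed unevenly. The metallothioneins MT1A and MT2A, small proteins that bind zinc and copper, read 2.74, 2.53 and 2.36 on the control arrays and 7.31, 7.27 and 7.36 on the ATRA arrays and 2.74, 2.81 and 2.63 on the control arrays and 6.96, 6.95 and 7.07 on the ATRA arrays. They rose 27.2-fold and 19.3-fold at these probes, although another of the 3 probes of MT2A differed by only 0.64. Of 18 metallothionein and zinc genes 6 rose, 3 fell and 9 were not called (median 0.07). The called share of 50% was close to the 46.2% of all genes. SLC39A14, which imports zinc and iron, rose by 1.57. SLC40A1, the iron exporter ferroportin, read 2.96, 2.98 and 2.97 on the control arrays and 1.76, 1.74 and 1.74 on the ATRA arrays (difference -1.22, adjusted p = 1.1e-08), and the transferrin receptor TFRC fell by 0.38. The ferritin chains FTL and FTH1 rose by 0.49 and 0.18. Among 21 iron genes 11 rose and 5 fell.

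Interferon-stimulated genes rose in 32 of 49 cases and fell in 5 (75.5% called against 46.2% of all genes, median 0.45). DDX58 is counted there under both its names, and IRF1 both there and among the interferon regulatory factors. IRF1, a transcription factor of the interferon response, read -0.67, -0.80 and -0.69 on the control arrays and 2.87, 2.89 and 2.86 on the ATRA arrays, a 12.1-fold rise (adjusted p = 5.7e-11). IRF8, above background on no control array, read -0.38, -0.52 and -0.32 on the ATRA arrays and was at least 41.1-fold higher. IRF7 rose by 1.17, IRF9 by 0.44 and IRF2 by 0.42, IRF5 fell by 0.74, and IRF3 and IRF4 were not called. The interferon-induced IFI27 read 1.29, 1.24 and 0.999 on the control arrays and 4.36, 4.37 and 4.49 on the ATRA arrays (difference 3.23), RTP4 rose by 2.73 and the ubiquitin-like ISG15 by 1.76. Other members of the list were not called: IFIT1 differed by -0.10 (adjusted p = 0.52), IFIT3 by 0.06 (adjusted p = 0.48) and CXCL10 by 0.11 (adjusted p = 0.61). IFI6 fell by 0.38 at the probe used, but differed by 0.070 (adjusted p = 0.868) as the mean over its probes. The immunoproteasome and peptide loading genes of MHC class I rose in 14 of 18 cases (median 0.64). PSMB10 read -3.82, -4.08 and -4.19 on the control arrays and 0.44, 0.47 and 0.47 on the ATRA arrays (difference 4.50, adjusted p = 3.9e-10) and PSMB8 -0.95, -1.19 and -1.31 on the control arrays and 1.51, 1.58 and 1.69 on the ATRA arrays (difference 2.74, adjusted p = 1.1e-08). PSMB9 rose by 0.80, the peptide trimming enzymes ERAP1 and ERAP2 by 1.46 each, and the light chain B2M differed by 0.11 (adjusted p = 0.34).

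**Figure D3:**
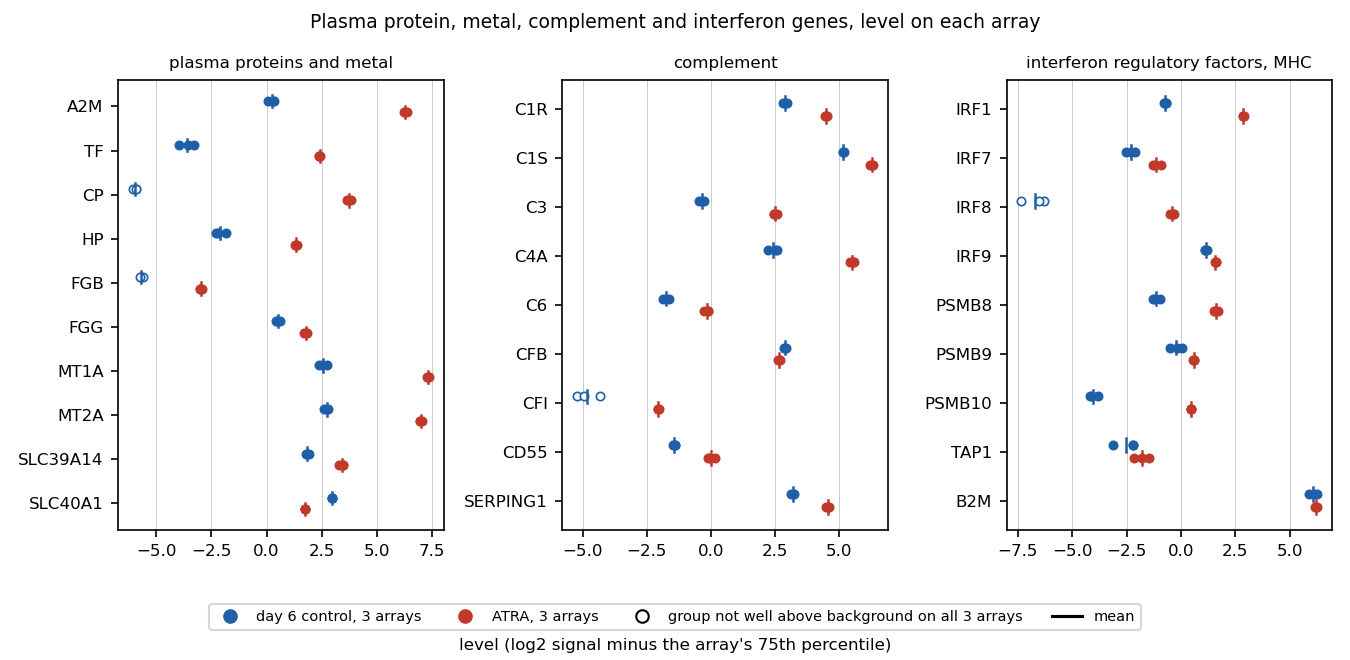
Level of plasma protein, metal, complement and interferon genes on each array (x axis, log2 signal minus the 75th percentile of the array), with blue points for the 3 day 6 control arrays, red points for the 3 ATRA arrays, bars for group means and open points for a group not well above background on all 3 arrays. A2M, C3, IRF1 and PSMB10 lie higher on every ATRA array, while B2M overlaps between the groups.

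Chemokines and interleukins moved both ways, 12 up and 12 down of 41 (58.5% called against 46.2% of all genes). The chemokine CCL5 read 1.19, 1.29 and 1.01 on the control arrays and -1.62, -1.80 and -1.79 on the ATRA arrays (difference -2.90, adjusted p = 1.3e-08). CCL19 fell by 2.64, CCL2 fell by 1.82 and the interleukin IL6 fell by 2.198. CXCL12, a chemokine of stromal cells, read 2.01, 1.95 and 2.19 on the control arrays and 4.46, 4.43 and 4.49 on the ATRA arrays (difference 2.41, adjusted p = 4.2e-08). TNFSF13B, a B cell survival factor, was at least 1.86-fold higher.

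The contractile apparatus was lowered broadly. Of 24 tested smooth muscle contractile genes 19 fell and 4 rose (median -1.29), DES being counted as lower from its brightest probe. ACTA2, smooth muscle actin, read 6.76, 6.85 and 6.60 on the control arrays and 2.96, 2.86 and 2.79 on the ATRA arrays, 14.6-fold lower, and TAGLN, an actin cross-linker, read 4.83, 4.97 and 4.53 on the control arrays and 1.69, 1.62 and 1.73 on the ATRA arrays (difference -3.10, adjusted p = 7.4e-09). LMOD1, which starts actin filaments, read 2.07, 2.22 and 2.10 on the control arrays and -0.33, -0.45 and -0.48 on the ATRA arrays (difference -2.55). All 3 genes were lower on every ATRA array, while 54% of all genes had no overlap between the groups. CNN1, MYL9 and TPM2 fell by 1.58, 1.35 and 1.32. Targets of the actin-sensing factors SRF and MRTF fell in 18 of 26 cases and rose in 2 (median -0.65), and share no gene with the contractile list. FLNA, the actin cross-linker filamin A, read 3.79, 3.71 and 3.73 on the control arrays and 1.97, 1.94 and 1.95 on the ATRA arrays (difference -1.79, adjusted p = 3.0e-08). The cytoskeletal actins ACTB and ACTG1 fell by 0.70 and 0.69, whereas SRF differed by -0.21 (adjusted p = 0.44). MICAL2, an enzyme that oxidises actin, read 1.95, 2.05 and 2.07 on the control arrays and -0.59, -0.50 and -0.65 on the ATRA arrays (difference -2.60). Among 26 targets of YAP and TEAD, 13 fell and 4 rose, and 3 of them (CCN1, CCN2 and ANKRD1) are SRF targets of the former list as well. CCN1 and CCN2 fell by 1.85 and 1.10.

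In the matrix the main fibrillar collagens were not called, and most of their processing enzymes fell. COL1A1 differed by 0.07 (adjusted p = 0.72), COL1A2 by 0.04 (adjusted p = 0.5) and COL3A1 by 0.08 (adjusted p = 0.18). Over 22 collagens 4 rose, 5 fell and 13 were not called (40.9% called, against 46.2% of all genes, median 0.04). Of 22 processing enzymes 13 fell and 2 rose (median -0.41). P4HA3, a subunit of the enzyme that hydroxylates proline in collagen, read 3.005, 2.75 and 2.76 on the control arrays and -0.44, -0.47 and -0.56 on the ATRA arrays (difference -3.33, adjusted p = 4.0e-09). The cross-linking enzyme LOX fell by 0.58, and P3H2, a different prolyl hydroxylase, rose by 1.74. Small leucine-rich proteoglycans, which coat collagen fibrils, fell in 8 of 14 cases and rose in 1. ASPN read 2.66, 2.46 and 2.46 on the control arrays and -0.41, -0.42 and -0.64 on the ATRA arrays (difference -3.02, adjusted p = 1.1e-08) and LUM read 6.86, 6.76 and 6.63 on the control arrays and 4.07, 3.999 and 3.95 on the ATRA arrays (difference -2.75, adjusted p = 1.2e-09). DCN, decorin, fell by 0.69 and PODN rose by 1.08.

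Matricellular and elastic proteins fell in 21 and rose in 15 of 41 cases. TNC, tenascin C, read 4.10, 4.24 and 4.45 on the control arrays and 0.76, 0.61 and 0.63 on the ATRA arrays (12.1-fold lower), and ELN, elastin, fell by 2.09. SPP1, osteopontin, went the other way at 1.79, 1.84 and 1.71 on the control arrays and 5.97, 5.92 and 6.04 on the ATRA arrays (difference 4.19, adjusted p = 2.7e-10), and TNXB, tenascin X, rose by 3.28 with 1 control array above background. Integrins fell in 11 of 19 cases, led by ITGA9 with -2.46 and ITGB4 with -1.78, and rose in 5, led by ITGB3 with 1.94. Their called share was 84.2%, against 46.2% of all genes, and their median -0.37. Proteases and their inhibitors were divided, 9 up and 10 down of 29: MMP1, interstitial collagenase, rose by 2.01 and its inhibitor TIMP3 fell by 2.000.

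The master factors of fat cell formation were not called. PPARG read -0.39, -0.59 and -0.59 on the control arrays and -0.55, -0.55 and -0.42 on the ATRA arrays (difference 0.02, 95% interval -0.14 to 0.17, adjusted p = 0.87) and CEBPA 4.88, 5.05 and 4.82 on the control arrays and 5.02, 4.98 and 5.005 on the ATRA arrays (difference 0.09, 95% interval -0.09 to 0.26, adjusted p = 0.4), and in both genes the arrays of the groups overlapped. ADIPOQ was not well above background on all arrays of any group and was not tested. Of 25 adipogenic transcription factors 9 fell, 5 rose and 11 were not called (56% called, against 46.2% of all genes, median 0.02). KLF5 read -2.05, -1.56 and -1.61 on the control arrays and -3.24, -3.64 and -3.56 on the ATRA arrays (difference -1.74, adjusted p = 3.1e-06), the coactivator PPARGC1A fell by 1.37 and ZBTB16 by 1.15. ZNF423, a zinc finger protein of committed preadipocytes, read -3.67, -3.76 and -3.49 on the control arrays and -1.68, -1.56 and -1.59 on the ATRA arrays (difference 2.03, adjusted p = 2.2e-08). Factors known to oppose fat cell formation rose in 6 of 18 cases and fell in 2, so that 44.4% were called against 46.2% of all genes, with FOXC2 and GATA2 up by 1.21 and 1.03.

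Lipid genes moved in both directions. Over 32 genes of lipid droplets, triglyceride synthesis and lipolysis 8 rose, 7 fell and 17 were not called, a share of called genes close to that of all genes. PLIN2, the droplet coat protein, differed by 0.06 (adjusted p = 0.4), CIDEC fell by 0.68 and GPAT3 rose by 1.21. For uptake 9 of 20 genes fell: CAV1, the coat protein of caveolae, read 6.03, 5.96 and 6.06 on the control arrays and 3.89, 3.74 and 3.87 on the ATRA arrays (difference -2.18, adjusted p = 1.2e-09), and the scavenger receptor CD36 fell by 0.73, a call lost with slide as a block (adjusted p = 0.052), while ACSL1 and ANGPTL4 rose by 0.99 and 1.70. In fatty acid synthesis 7 rose and 11 fell of 24. FASN, the fatty acid synthase, rose by 0.72 and the elongase ELOVL6 fell by 0.78. Cholesterol synthesis was more uniform, with 20 of 26 genes lower and 3 higher (median -0.44). HMGCS1, an early enzyme of the pathway, read 1.11, 1.14 and 0.96 on the control arrays and 0.08, 0.06 and 0.09 on the ATRA arrays (difference -0.99, adjusted p = 3.7e-07). The secreted C1QTNF3 read 2.12, 2.21 and 1.98 on the control arrays and -1.19, -1.22 and -1.28 on the ATRA arrays (difference -3.34, adjusted p = 7.9e-10).

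**Figure D4:**
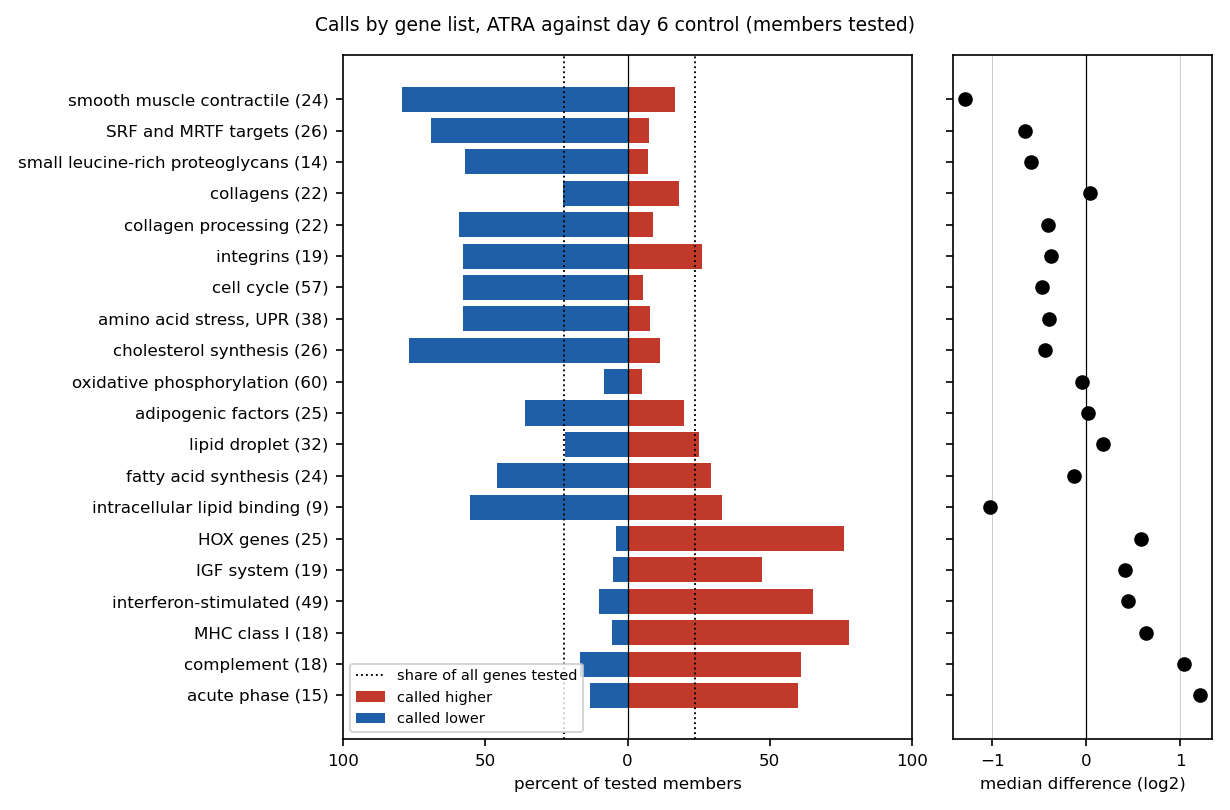
Left, percent of tested members of each gene list called higher (red, to the right) or lower (blue, to the left) with ATRA, with the number tested in brackets and dotted lines at the shares over all genes (23.7% and 22.4%). Right, median log2 difference of the tested members; smooth muscle genes lie lowest at -1.29 and acute phase genes highest at 1.21.

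Growth factor systems changed member by member. Of 19 genes of the insulin-like growth factor system 9 rose and 1 fell, so that 52.6% were called against 46.2% of all genes. Their median was 0.41, but 0.21 without control array 1 and 0.17 with slide as a block. IGFBP5, a binding protein of these factors, read 3.64, 3.56 and 3.92 on the control arrays and 5.93, 6.05 and 6.27 on the ATRA arrays (difference 2.38, adjusted p = 4.3e-07), IGFBP6 rose by 2.34, IGFBP3 by 1.84 and IGF2 by 1.96, while IGF1 differed by 0.06 (adjusted p = 0.77). NRP1, a receptor for semaphorins and VEGF, read 0.09, 0.14 and 0.40 on the control arrays and 3.44, 3.29 and 3.46 on the ATRA arrays (difference 3.19), SEMA6D, a semaphorin, -4.09, -4.32 and -3.88 on the control arrays and -0.61, -0.64 and -0.71 on the ATRA arrays (difference 3.45), and PGF, a ligand of VEGF receptor 1, -0.18, -0.30 and -0.30 on the control arrays and -3.36, -3.50 and -3.27 on the ATRA arrays (difference -3.12). PDGFRA rose by 1.38 and PDGFRB differed by 0.16 (adjusted p = 0.44).

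In the BMP and TGF-beta system 17 of 46 genes rose and 11 fell (60.9% called against 46.2% of all genes). The share that fell was close to that of all genes (22.4%). GREM1, a secreted BMP antagonist, read -1.22, -1.34 and -1.59 on the control arrays and -4.39, -4.04 and -3.83 on the ATRA arrays (difference -2.71), BMP4 fell by 1.49, and the BMP target genes ID1 and ID3 rose by 1.14 and 1.30. For Wnt 19 of 48 fell and 12 rose (64.6% called), and the share that rose was close to that of all genes (23.7%). The receptors FZD1 and FZD8 fell by 1.91 and 2.07, FZD4 rose by 1.43, and AXIN2, a feedback target of the pathway, differed by 0.26 (adjusted p = 0.4). GLI1, the transcription factor and target of Hedgehog signalling, read -0.83, -0.56 and -0.46 on the control arrays and -2.90, -3.03 and -3.12 on the ATRA arrays (difference -2.40, adjusted p = 5.4e-08), although another probe of the gene differed by only -0.13. Its repressor relative GLI3 rose by 0.76.

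The medium contained dexamethasone in both groups, and genes induced by glucocorticoids fell in 14 and rose in 9 of 30 cases (median -0.19). The median had the opposite sign with normexp background correction (0.017) and without the filter on dim probes (0.02), was -0.33 without ATRA array 2 and -0.07 without ATRA array 3. TSC22D3, known as GILZ, read 4.46, 4.44 and 4.36 on the control arrays and 1.93, 1.87 and 1.74 on the ATRA arrays (difference -2.57, adjusted p = 9.8e-10), and FKBP5 read 4.60, 4.46 and 4.62 on the control arrays and 3.195, 3.08 and 3.004 on the ATRA arrays (difference -1.47, adjusted p = 5.7e-06). The members that rose most, apart from the metallothioneins, were FAM107A with 2.61 and ANGPTL4 with 1.70. The glucocorticoid receptor NR3C1 differed by 0.14 (adjusted p = 0.089), and HSD11B1, which activates cortisol, by -0.07 (adjusted p = 0.93).

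Prostaglandin and lipid mediator genes rose in 16 of 30 cases and fell in 7. PTGS2, the inducible cyclooxygenase, rose by 2.02 and PTGS1, the constitutive form, fell by 1.79. S1PR1, a receptor for sphingosine 1-phosphate, read -3.46, -3.56 and -3.18 on the control arrays and -0.41, -0.52 and -0.43 on the ATRA arrays (difference 2.95), and the prostaglandin receptor PTGER3 -4.37, -4.17 and -4.16 on the control arrays and -1.79, -1.84 and -2.002 on the ATRA arrays (difference 2.36). DDC, which makes dopamine, serotonin and other amines, read 3.09, 3.19 and 2.97 on the control arrays and -3.27, -3.43 and -3.25 on the ATRA arrays, 84.7-fold lower, and the histamine genes HRH1, a receptor, and HNMT, which inactivates histamine, fell by 3.38 and 2.02.

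Most called genes of proliferation and amino acid stress were lower. Of 57 cell cycle and replication genes 33 fell and 3 rose (median -0.47). RRM2, a subunit of ribonucleotide reductase, read -2.05, -1.82 and -1.78 on the control arrays and -4.21, -4.40 and -4.04 on the ATRA arrays (difference -2.34, adjusted p = 5.6e-08), CCND1, cyclin D1, fell by 1.07 and CDK1 by 1.01. The CDK inhibitors CDKN1A, CDKN1C and CDKN2B were also lower, by 0.68, 1.67 and 1.58. In the response to amino acid shortage and unfolded proteins 22 of 38 genes fell and 3 rose (median -0.40). Of the enzymes that make serine and asparagine, PSAT1 fell by 1.59, PHGDH fell by 1.05 and ASNS fell by 0.98. HERPUD1, of the degradation machinery in the endoplasmic reticulum, stood apart at 1.80, 1.70 and 1.72 on the control arrays and 4.48, 4.36 and 4.35 on the ATRA arrays (difference 2.66, adjusted p = 2.7e-10). Nuclear genes of oxidative phosphorylation were seldom called, with 13.3% of 60 (3 up and 5 down, median -0.04), although 16 fell without control array 3. EPAS1, the hypoxia factor HIF-2 alpha, read 3.64, 3.66 and 3.85 on the control arrays and 6.05, 5.97 and 6.05 on the ATRA arrays (difference 2.31, adjusted p = 2.6e-09), and HIF1A fell by 0.41.

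Of the markers of other lineages some were called and many were not, as set against 46.2% of all genes. Of 11 tested chondrocyte and osteoblast markers 3 rose and 1 fell (36.4% called). Their summed linear signal, relative to the 75th percentile, was 30.3 to 33.6 over the control arrays and 213 to 228 over the ATRA arrays, carried mainly by SPP1 and MGP (2.61); ALPL was at least 3.62-fold higher, ACAN fell by 1.95, and DMP1, IBSP and SOST were above background on none. Of 12 endothelial markers 5 rose and 0 fell (41.7%), VWF by 2.34, and their sum was 3.07 to 3.63 over the control arrays and 4.88 to 5.06 over the ATRA arrays. Of 10 macrophage and leukocyte markers 6 rose and 0 fell (60%), CD14 by 2.31, and the sum was 8.76 to 12.6 over the control arrays and 14.2 to 15.3 over the ATRA arrays. Skeletal muscle markers rose in 4 and fell in 3 of 14 cases (median 0.23). Their sum was 48.3 to 52.2 over the control arrays and 26.4 to 27.1 over the ATRA arrays. It leans on bright probes and counts DES at its brightest one. That probe read 5.49, 5.30 and 5.35 on the control arrays and 4.04, 4.06 and 4.09 on the ATRA arrays. Other DES probes rose by 2.53 and 2.56, so the lower sum does not show that muscle markers fell as a group. Schwann cell and neural markers rose in 2 and fell in 3 of 8 cases, with sums of 10.9 to 12.3 over the control arrays and 7.37 to 8.39 over the ATRA arrays. Epithelial markers rose in 2 and fell in 1 of 9 (4.95 to 8.23 against 7.08 to 9.38), and tendon markers rose in 2 and fell in 1 of 4 (73.6 to 78.3 against 85.6 to 90.4). Preadipocyte and fibroblast markers rose in 5 and fell in 7 of 19, and their sum was 984 to 1057 over the control arrays and 697 to 765 over the ATRA arrays. In RNA of whole cultures a changed number of cells of a type and a changed amount of RNA per cell cannot be told apart, and the part of such cells in the results was not tested.

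Set against day 0, the changes with ATRA took different positions. All 25 of the largest increases lay above their day 0 level, as did 639 of the 746 genes that rose at least 2-fold (55 lay below and 52 were not called). For comparison, 71.5% of all genes differed between ATRA and day 0, 38.7% being higher and 32.8% lower with ATRA. Of the 25 largest decreases 17 lay below day 0 and 8 above. LGI2 and WFDC1 were among the genes below, at -5.36 and -4.20 with ATRA against 1.78 and 2.04 at day 0. HRH1 and P4HA3 stayed above, at -0.95 and -0.49 against -2.33 and -1.92. DHRS3 and FAM20A read similar values at day 0 and in the day 6 control (0.88 and 0.91, -1.71 and -1.79).

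**Figure D5:**
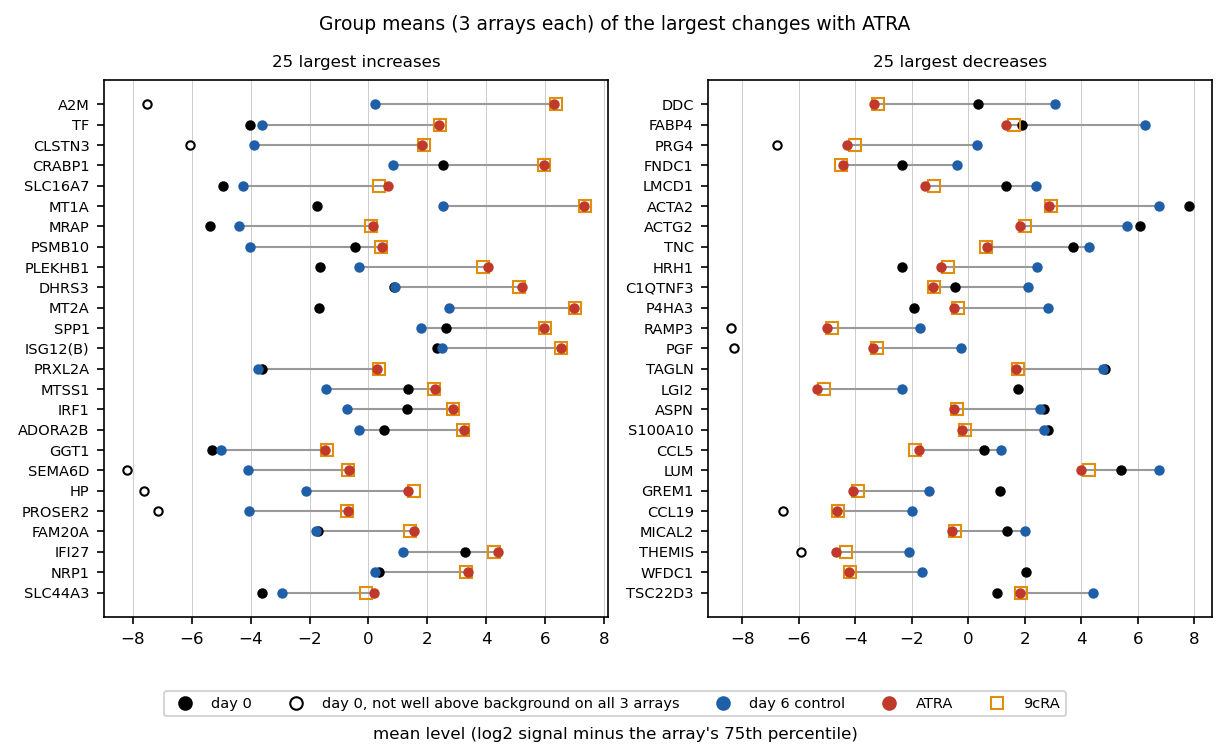
Mean level over 3 arrays (x axis, log2 signal minus the 75th percentile of the array) of the 25 largest increases and 25 largest decreases with ATRA, at day 0 (black, open where not above background on all 3 arrays), in the day 6 control (blue), with ATRA (red) and with 9cRA (orange squares). The ATRA means minus the 9cRA means run from -0.33 to 0.28, and all 25 increases end above their day 0 level.

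ATRA and 9cRA are geometric isomers and were given at the same dose for the same time, so their arrays can be set against each other directly. Of 17624 genes, 21 were called as different between them (0.119%, limma). An unadjusted p under 0.05 was found for 1851 genes (10.5%), more than this cutoff would pass if no gene differed. The few calls therefore do not show that the 2 isomers act alike. None of the 50 largest changes was called, and their differences ran from -0.33 to 0.28. For 48 of the 50 the 95% interval stayed within 1 either side of 0. The outer bounds of the intervals over all 50 were -1.27 and 0.80. Responses smaller than these intervals could not be separated. Of the 21 genes 10 stood lower and 11 higher with ATRA than with 9cRA. PGR, the progesterone receptor, was above background on all 9cRA arrays and on no ATRA array. EGR1, an immediate early transcription factor, stood 1.04 lower with ATRA (adjusted p = 0.013). In the same direction were 3 of the 26 genes of cholesterol synthesis and uptake (HMGCS1, INSIG1 and NSDHL, by 0.43, 0.42 and 0.34) and 2 of the 24 of fatty acid synthesis (SCD and FADS2, by 0.51 and 0.41), lists that were looked at after the calls were known. The named genes that stood higher were H2AC25 (0.72), KRTCAP3 (0.70), RNPC3 (0.55), LUC7L3 (0.45) and GUCY1B1 (0.30). The 3 arrays of 9cRA lay on 1 slide with 1 ATRA array, and without ATRA array 3 no gene was called.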

How the data were processed

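Total RNA (100 ng, per the labels' protocols) was amplified, labelled with Cy3 and hybridised to 1-colour Agilent bovine arrays. Per the file headers, the authors deposited spot intensity from Feature Extraction 10.7.3.1, with background subtracted and no normalization between arrays. A second deposited file gives log2 values of each group. Most of them lay close to group means of the arrays centred on the median of each probe, with a median absolute difference of 0.00255 to 0.00277. Some probes differed more: the correlation was 0.935 for ATRA, 0.949 for 9cRA, 0.967 for the day 6 control and 0.992 for day 0.

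Control spots and 191 outlier spots were left out, log2 of the processed signal was taken minus each array's 75th percentile, and spots of a probe were averaged. Probes were named through RefSeq accessions and symbols (28355 by accession, 5293 by symbol, 148 by an older symbol, 9857 by the name in the file). The probe with the highest mean stood for its gene. A gene entered the test where 1 or more of the 4 groups had it well above background on each of its 3 arrays (17624 genes), and was fitted in 1 fit of the 4 group means with limma 3.58.1 in R 4.3.3, and a Benjamini-Hochberg adjusted p under 0.05 was a call. On simulated data with known changes the fit recovered 49 of 67 genes changed 1.5-fold, 52 of 67 changed 2-fold and 65 of 66 changed 4-fold, with 11 false calls. The simulation changed only 200 of 17624 genes and had independent noise without slide effects. In the data 46.2% of genes were called, so these rates do not carry over and only check that the fit runs correctly.

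The rule for named genes took the 25 largest increases and decreases measured on all 6 arrays, the 10 largest bounds each way, up to 6 called members of each list per direction and all retinoid, HOX, lipid-binding and IRF genes; others were chosen after their values were seen, and not every gene taken by the rule is described. For genes taken by the size or call of their change, a lack of overlap between the arrays of the groups comes largely with that choice. It is no separate finding where it is described. The comparison and the gene lists were chosen with earlier results of these data known. Promoter sequences were not used here, and a few genes taken by the rule are not reported here.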

Additional observations from a re-analysis of the deposited data

How the results depend on the processing

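The 50 largest changes kept their direction and their call in each of the 950 values from the alternatives with a test. They had been picked from the same arrays as called and largest, so that these alternatives could hardly lose them. The deposited table gave each the same direction, but it holds values from the same arrays and is no separate check. Counts moved more. On slide 2 alone 5290 genes were called, 2507 of them higher, against 8134 and 4184. With normexp background correction 833 genes were called at 2-fold or more (462 higher, 371 lower), against 1382 (746 and 636), and among genes above background on all 6 arrays 471 were higher. The calls between ATRA and 9cRA were 21, and became 32 with quantile normalization, 34 with normexp, 4 without the filter, 40 on genes above background on all 6 arrays, 33 and 5 with slide as a fixed or random block, and 61 with a trended, robust eBayes. Of 1216 list medians under these settings 154 moved by more than the spread between arrays; without the filter on dim probes complement fell from 1.04 to 0.22 and lipid-binding proteins went from -1.03 to -0.0099, and among genes above background on all 6 arrays the retinoic acid targets went from 0.75 to 0.30. Leaving out 1 array gave 6918 to 8158 called genes, 3372 to 4172 higher, 3413 to 3986 lower, 1338 to 1461 at 2-fold or more (700 to 812 higher, 605 to 649 lower) and 0 to 27 between the retinoids. With the mean over all probes of a gene the difference changed sign for DES (1.33), HOXC11 (-0.019), SREBF2 (-0.19), IFI6 (0.070) and UQCRB (0.10), since probes of these genes differ. Array medians in place of the 75th percentile gave 3250 genes higher and 4399 lower, a shift of the median over all genes to -0.01. The array numbers 1 to 3 come from the file names. Deviations of same-numbered control and ATRA arrays correlated at 0.10, -0.082 and -0.021, so the numbers were not taken to pair the arrays; with the number as a replicate block, an alternative chosen after seeing the data, 7530 genes were called (3882 higher, 3648 lower), and 2 between the retinoids. Dim signals limit the size of changes that start from background, and 3 arrays per group limit the precision.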
